A study of Mus musculus with 30 samples.

Results

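The sites described here were peaks of the V5 chromatin immunoprecipitation with sequencing (ChIP-seq) of V5-Hoxa9-AM cells that shared no base with a peak of 3 other lists. Those were the AM ChIP of the same cells and 2 V5 ChIPs of V5-ER-Hoxa9-AM cells. Of these, 1 was in estradiol (E2) and 1 was after 72 h without it and then 48 h with it. On chromosomes 1 to 19 and X, 10559 of the 17006 V5 sites met this rule and are called V5-only sites. The other 6447 V5 sites were made up of 5227 that were also in the AM list and in no ER V5 list, and 1220 that were also in an ER V5 list. The members were thus chosen by which lists called a peak, so the number, widths and coordinates of the V5-only sites are a description with no test.

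V5-Hoxa9-AM cells were untreated. V5-ER-Hoxa9-AM cells, in which the tagged HOXA9 carries the ER fusion, were kept in E2 or kept 72 h without E2 and then 48 h with it. H3K4me3 came from another line, ER-Hoxa9-Lys-GFP, which was kept in E2, kept 24, 40 or 72 h without E2 and then returned to it for 96, 80 or 48 h, or kept 120 h without E2. Every cell was from the C57BL/6 strain, was cultured in vitro in medium with stem cell factor and, by the names of the lines, carried an introduced HOXA9. The labels do not say whether a line was 1 clone, and the meaning of AM is not given in the sources used here. For both AM samples the antibody field reads V5, and they were taken as AM from their titles. Each group was 1 library, so no difference here has a replicate check, and the intervals below are 95% intervals that cover the counting of peaks only.

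HOXA9 is a homeodomain transcription factor of blood stem and progenitor cells that binds DNA together with PBX and MEIS proteins. Its level falls as myeloid cells mature, and forced HOXA9 activity blocks that maturation and is found in acute myeloid leukaemia. In an ER fusion, the estrogen receptor part keeps the protein active only while E2 is present, and cells differentiate into myeloid cells when E2 is withdrawn. H3K4me3, trimethylation of lysine 4 of histone H3, marks the starts of active genes.

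V5-only sites lay at or just before the starts of some neutrophil granule and calprotectin genes, whose sequences show which letters these sites covered. Primary granule genes are active in early granulocyte precursors, and secondary granule and calprotectin genes are active later in neutrophil maturation. The sequences of 6 such starts are given from RefSeq for GRCm38.p6, 5′ to 3′ along the gene. Each was clipped to those of the 250 bases before the gene start that the V5-only site covered. Capitals mark matches on either strand to 5 short motifs: TTGCNNAA for C/EBP factors, TGACAG for MEIS, TGTGGT for RUNX, GAGGAA for ETS factors and TGATTNAT for HOX with PBX. These 6 were picked with their values known. The stretch of Ngp, neutrophilic granule protein, was chr9:110419563-110419807 on the plus strand. The stretch of Lcn2, the secondary granule protein lipocalin, was chr2:32387785-32387989 on the minus strand. The stretch of Fcnb, ficolin B, was chr2:28084879-28085077 on the minus strand. The stretch of S100a9, a calprotectin subunit, was chr3:90695722-90695925 on the minus strand. The stretch of Ctsg, the protease cathepsin G, was chr14:56102575-56102824 on the minus strand. The stretch of Elane, neutrophil elastase, was chr10:79886139-79886311 on the plus strand.
Ngp: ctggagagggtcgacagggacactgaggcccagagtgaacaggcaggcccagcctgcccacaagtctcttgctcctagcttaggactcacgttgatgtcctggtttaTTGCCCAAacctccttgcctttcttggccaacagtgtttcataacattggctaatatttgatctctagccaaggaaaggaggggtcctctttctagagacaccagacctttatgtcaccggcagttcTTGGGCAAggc
Lcn2: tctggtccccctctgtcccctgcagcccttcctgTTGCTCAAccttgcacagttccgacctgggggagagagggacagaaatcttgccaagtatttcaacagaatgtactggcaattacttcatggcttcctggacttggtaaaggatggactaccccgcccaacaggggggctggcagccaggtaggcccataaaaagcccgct
Fcnb: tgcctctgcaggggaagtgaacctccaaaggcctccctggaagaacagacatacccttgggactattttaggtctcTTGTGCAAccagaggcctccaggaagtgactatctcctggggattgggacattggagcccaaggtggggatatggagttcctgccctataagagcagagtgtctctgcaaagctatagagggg
S100a9: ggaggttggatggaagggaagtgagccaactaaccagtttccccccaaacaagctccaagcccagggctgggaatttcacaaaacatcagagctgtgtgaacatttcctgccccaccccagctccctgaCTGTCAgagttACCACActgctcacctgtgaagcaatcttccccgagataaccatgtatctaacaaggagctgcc
Ctsg: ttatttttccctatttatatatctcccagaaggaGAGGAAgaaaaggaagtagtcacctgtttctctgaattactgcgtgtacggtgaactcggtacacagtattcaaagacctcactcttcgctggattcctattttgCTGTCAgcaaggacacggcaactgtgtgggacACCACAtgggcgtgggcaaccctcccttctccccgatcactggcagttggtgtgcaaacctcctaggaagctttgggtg
Elane: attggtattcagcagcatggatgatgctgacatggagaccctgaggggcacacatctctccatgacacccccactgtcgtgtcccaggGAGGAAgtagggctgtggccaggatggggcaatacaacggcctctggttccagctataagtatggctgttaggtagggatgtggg

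In these stretches, Ngp had 2 C/EBP matches, at 138 to 131 and at 11 to 4 bases before the gene start. Lcn2 and Fcnb had 1 C/EBP match each, at 216 to 209 and at 123 to 116 bases before the start. S100a9 had a MEIS and a RUNX match separated by 5 bases, and Ctsg had a MEIS, a RUNX and an ETS match. Elane had an ETS match alone. Of the stretches of primary granule and neutrophil maturation genes not printed, those of Mpo, Csf3r, S100a8 and Igsf6 held ETS matches alone. That of Camp held no match. None of the 6 stretches held the HOX with PBX motif, which says only that these letters were absent from these windows.

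Across all promoters that a V5-only site overlapped, the C/EBP, MEIS and RUNX motifs stood within counting error of their share in promoters of the same length, as did the HOX with PBX motif, and the ETS motif stood just above it. Promoter windows ran from 250 bases before to 50 after a gene start. V5-only sites overlapped 749 of 21044 windows (3.56%). The C/EBP motif was in 10.8% of the 749 windows (8.68 to 13.3), against 12.3% of the 478 windows with another V5 site (9.53 to 15.6) and 10.3% of all windows. The MEIS motif was in 16.4% (13.8 to 19.3) of windows with a V5-only site, 23.6% (19.9 to 27.7) of windows with another V5 site and 18.3% of all windows. The ETS motif was in 30.8% (27.6 to 34.3) of windows with a V5-only site, 30.8% (26.6 to 35.1) of windows with another V5 site and 27.2% of all windows. The RUNX motif was in 16.3% (13.7 to 19.1), 17.2% and 14.8%. The HOX with PBX motif was rare, in 1.87% (1.03 to 3.12) of windows with a V5-only site, 1.67% of windows with another V5 site and 2.78% of all. The median GC content of these windows was 57.7% with a V5-only site and 56.7% over all windows. A match is a description of the letters and not a bound site.

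V5-only sites were narrow. Their median width was 256 bp, with an interquartile range of 217 to 308 bp and a largest width of 1014 bp. V5 sites also in the AM list and in no ER V5 list had a median of 432 bp, and those also in an ER V5 list 506 bp. A width of 500 bp or more was found in 216 V5-only sites (2.05%), 33.0% of the sites shared with AM alone and 51.9% of those shared with an ER V5 list. Every one of the 1351 V5 sites under 200 bp was V5-only, as were 97.9% of those of 200 to 249 bp, 62.4% of those of 300 to 349 bp and 2.87% of those of 700 bp or more.

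**Figure D1:**
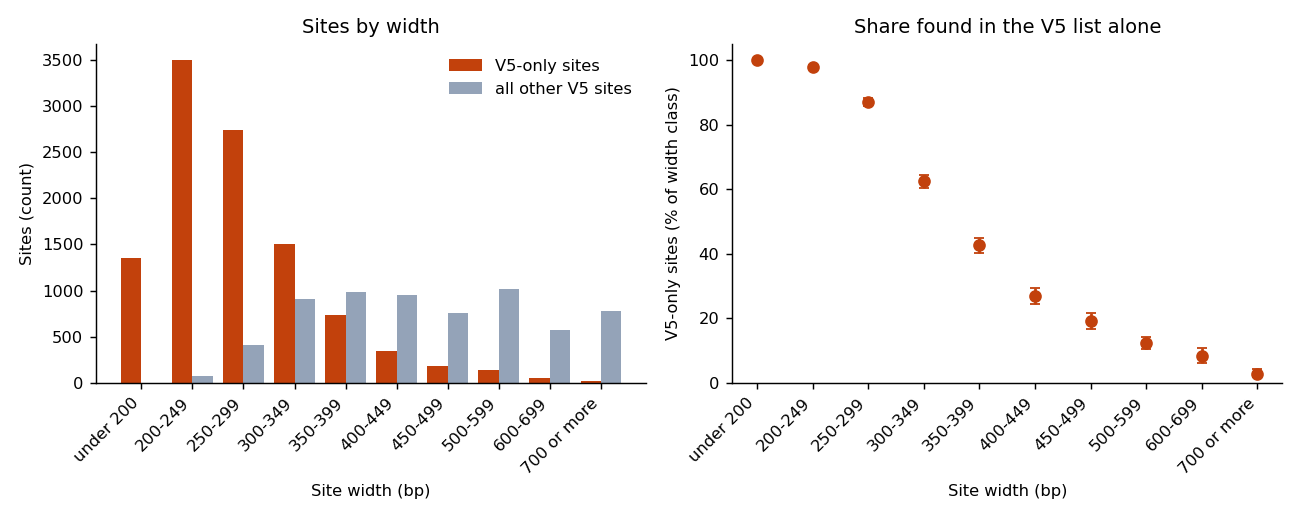
Left, the number of V5-only sites and of all other V5 sites in each width class (bp). Right, V5-only sites as a percentage of the V5 sites in that class, with 95% Clopper-Pearson intervals, which fell to 2.87% at 700 bp or more, against 100% under 200 bp.

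Shared sites had the same boundaries in every list. All 6195 V5 sites that overlapped an AM peak had the same start and end in both lists. So did the 1079 that overlapped an ER V5 peak in E2 and the 376 that overlapped one after 72 h without E2 and its return. Nothing in the sources used here says how common intervals arose, so whether the widths of shared sites came from the V5 library alone is unknown, and this limits the width comparison. The files hold no score or height, so how strong a V5-only site was cannot be read from them.

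The other lists were much shorter than the V5 list, with 6773 AM peaks and 1417 ER V5 peaks in E2. After 72 h without E2 and its return, there were 387 ER V5 peaks. A site missing from a list was not called there; whether it was bound more weakly or not at all cannot be told from coordinates. Few V5-only sites lay at the edge of the rule: the nearest was 2 bp from an excluded peak, 355 (3.36%) were within 500 bp of one, and the median gap was 36734 bp. The AM list of V5-ER-Hoxa9-AM cells in E2, which the rule did not use, held 258 peaks and contained 1 V5-only site. V5-only sites also lay near each other, with a median gap of 21118 bp to the next one and 3522 (33.4%) within 10 kb of another. They made up between 58.9% of V5 sites on chromosome 9 and 73.5% on X, with a median of 62.2% over 20 chromosomes.

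V5-only sites were spread over genes and the space between them, with a minority at gene ends. Of the 10559, 1215 (11.5%, 10.9 to 12.1) lay within 1 kb of either end of a protein-coding gene, against 11.9% (11.2 to 12.8) of the other V5 sites and 11.7% of all V5 sites. The difference of -0.44 percentage points had an interval of -1.45 to 0.55 and was positive on 8 of 20 chromosomes, and by the midpoint it was 0.63 points (-0.33 to 1.58), so the classes could not be separated. Windows of 1 kb around gene ends held 3.01% of the span between the first and last gene of the chromosomes. Inside genes lay 5872 V5-only sites (55.6%), against 54.0% of the other V5 sites, while genes covered 39.6% of that span. A further 13.4% of V5-only sites were more than 50 kb from any protein-coding gene, against 14.9% of the other V5 sites.

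The 2 kinds of shared site differed from V5-only sites in opposite directions. V5-only sites were near a gene end 2.12 points less often than sites shared with AM alone (interval -3.24 to -1.02; lower on 17 of 20 chromosomes). Counted by the midpoint, that difference was -1.03 points, with an interval of -2.11 to 0.02 that included 0. They were near one 6.75 points more often than sites shared with an ER V5 list, of which 4.75% were (interval of the difference 5.28 to 7.98; higher on 19 of 20 chromosomes). Between the first quartile and the median width of the V5 list, above 240 bp and up to 308 bp, V5-only sites were near a gene end in 11.2% of 3709 cases and other V5 sites in 15.4% of 571, and above the upper quartile, 420 bp, in 10.8% of 566 and 11.1% of 3670.

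Near genes, V5-only sites gathered just upstream of the start. RefSeq gene starts were used on the 19 chromosomes for which they were at hand, which held 10236 V5-only sites. Of these, 937 (9.15%) lay within 1 kb of a start and 388 (3.79%) near another gene end only. Midpoints up to 1000 bp upstream of a start were found for 581 V5-only sites (5.68%), and up to 1000 bp downstream for 319 (3.12%). The single 200 bp bin before the start held 353 V5-only sites (3.45%). Within 200 bp of a start, V5-only sites (5.35%, 4.92 to 5.81) were close to sites shared with AM alone (5.53%, 4.91 to 6.19), while sites shared with an ER V5 list were there in 0.598% of cases, or 7 sites. Such concentration at gene starts of GRCm38.p6 also bears on the build of the V5 list, taken as mm10.

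**Figure D2:**
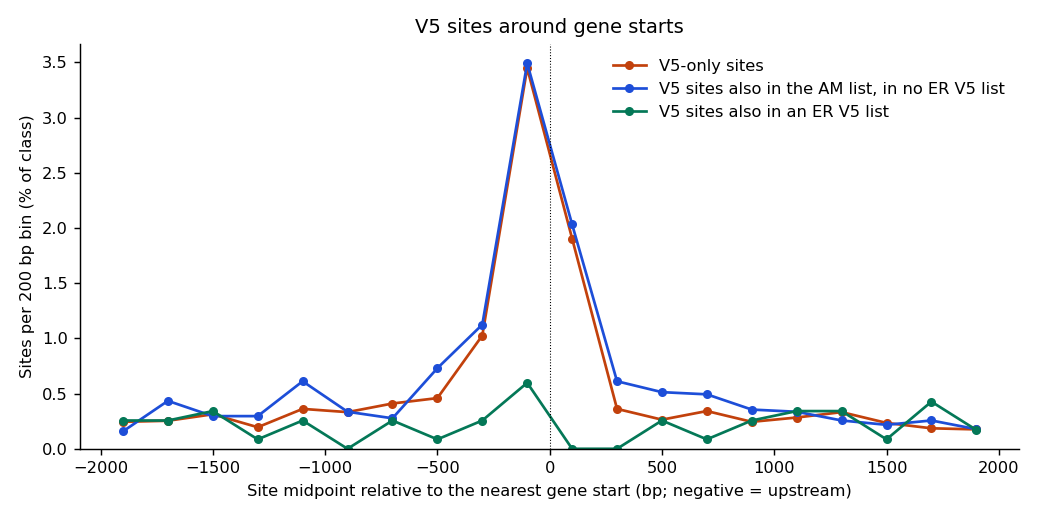
Sites per 200 bp bin as a percentage of each class, by the distance of the site midpoint from the nearest RefSeq gene start (bp, negative upstream). V5-only sites and sites shared with AM alone peaked at 3.45% and 3.49% just upstream of the start, and sites shared with an ER V5 list reached 0.598%.

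The widest V5-only sites were mostly away from gene starts. The widest, of 1014 bp at chr5:129632294-129633307 (mm10), lay 21195 bp from Mmp17, which encodes a membrane-anchored matrix metalloproteinase. The next, of 946 bp, lay inside Snx9, an endocytosis gene, and the third, of 866 bp, lay 16535 bp from Kcnip1, which encodes a potassium channel interacting protein. Kif2c, Klf7, Tanc1, Lilr4b, Dcun1d5, Heatr5a, Frmd5 and Vav3 were nearest genes of other sites among the 12 widest, and these sites measured 749 to 860 bp. The site in Vav3, a guanine nucleotide exchange factor of blood cells, lay 11820 bp inside the gene. Among the 8 widest within 1 kb of a gene end were sites at the starts of Taf15 (739 bp), the leukocyte phosphatase gene Ptprc (687 bp), Actr3 (660 bp) and Ctsg (616 bp), together with sites by Dcun1d5, Cfap54, Slc20a1 and Pon2.

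V5-only sites had 5382 different nearest genes, of which 3106 had a single V5-only site and 389 had 5 or more. Pde4d, a cyclic AMP phosphodiesterase gene of 1302 kb, was nearest to 24. Lpp (599 kb) was nearest to 18 and Prkg1 (1201 kb) to 14. Cited2, a transcriptional co-regulator gene of 2.45 kb, was nearest to 18 V5-only sites, none of them within 10 kb, and Zfp386 was likewise nearest to 18 with none within 10 kb. Zfp608 (16), the phosphoinositide 3-kinase subunit gene Pik3r1 (15), Tprg (15) and Ptprc (14) were also among the first 10. Pik3r1 had 2 V5-only sites within 10 kb and no other V5 site.

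A V5-only site lay within 10 kb of 5570 of 21627 protein-coding genes (25.8%), and 3536 (16.3%) had a V5-only site and no other V5 site there. Another V5 site lay within 10 kb of 3690 genes (17.1%), and a V5-only site within 50 kb of 10005 (46.3%). The share with a V5-only site was 13.2% for genes up to 10 kb long, 24.4% from 10 to 30 kb, 35.1% from 30 to 100 kb and 49.7% above 100 kb. Of the 14 gene lists, which were written with earlier results of these data known, the primary granule list stood highest, at 81.8%, and the HOX and cofactor list lowest, at 0 of 10 genes.

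Genes of the primary granule list had V5-only sites in 9 of 11 cases, although their median length was 5.72 kb against 17.3 kb over all genes, and 9 of 11 also had another V5 site. Serpinb1a, a protease inhibitor gene, had 3, and Mpo, myeloperoxidase, Ctsg, Elane, Prtn3 and Gstm1 had 2 each. Elane and Prtn3 are neighbours and shared their sites. Neutrophil maturation genes had a V5-only site in 19 of 30 cases and another V5 site in 9 of 30, and 12 had a V5-only site with no other V5 site nearby. Ncf1, a subunit of the phagocyte oxidase, had 5, Cybb, its membrane subunit, and the chemokine receptor gene Cxcr2 had 4 each, and S100a8, the partner of S100a9, had 3. All 4 sites of Cybb and all 4 of Cxcr2 were V5-only, with widths of 245 to 386 bp and 220 to 370 bp.

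Myeloid transcription factor genes had a V5-only site in 17 of 30 cases and another V5 site in 19. Runx1, a regulator of blood formation, had 7 V5-only sites, Runx2 5, Ikzf1 4 and Bach1 3, while Spi1 (PU.1), Cebpa and Cebpe, factors of the granulocyte and monocyte lineages, had 1 each. Monocyte and macrophage genes had one in 14 of 25 cases, with 3 at F13a1 and 2 at Ccr2, the chemokine receptor of inflammatory monocytes. Stem and progenitor genes had one in 16 of 30 cases and another V5 site in 19, at a median length of 46.9 kb. Etv6 had 8, Angpt1 7, and Bcl2 and Fli1 6 each. Cd34, Kit and Flt3, which encode progenitor surface proteins, had no V5-only site within 10 kb. Kit was the nearest gene of 5 V5-only sites farther away, and Cd34 and Flt3 had 1 and 3 other V5 sites within 10 kb. Hoxa9 and Meis1 had no V5-only site within 10 kb either, nor did any of the 10 genes of the HOX and cofactor list.

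Among the remaining lists, housekeeping genes had a V5-only site in 10 of 20 cases, with 8 lacking any other V5 site, and cell cycle genes in 7 of 25. Gapdh, a glycolytic gene, had 1 V5-only site of 478 bp inside the gene. Growth factor receptor genes had one in 7 of 20 cases, the mast cell, eosinophil, basophil and dendritic cell list in 5 of 15, the fibroblast and epithelial list in 3 of 15, the lymphoid list in 3 of 20, the erythroid and megakaryocyte list in 2 of 16 and developmental Polycomb targets in 2 of 30.

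**Figure D3:**
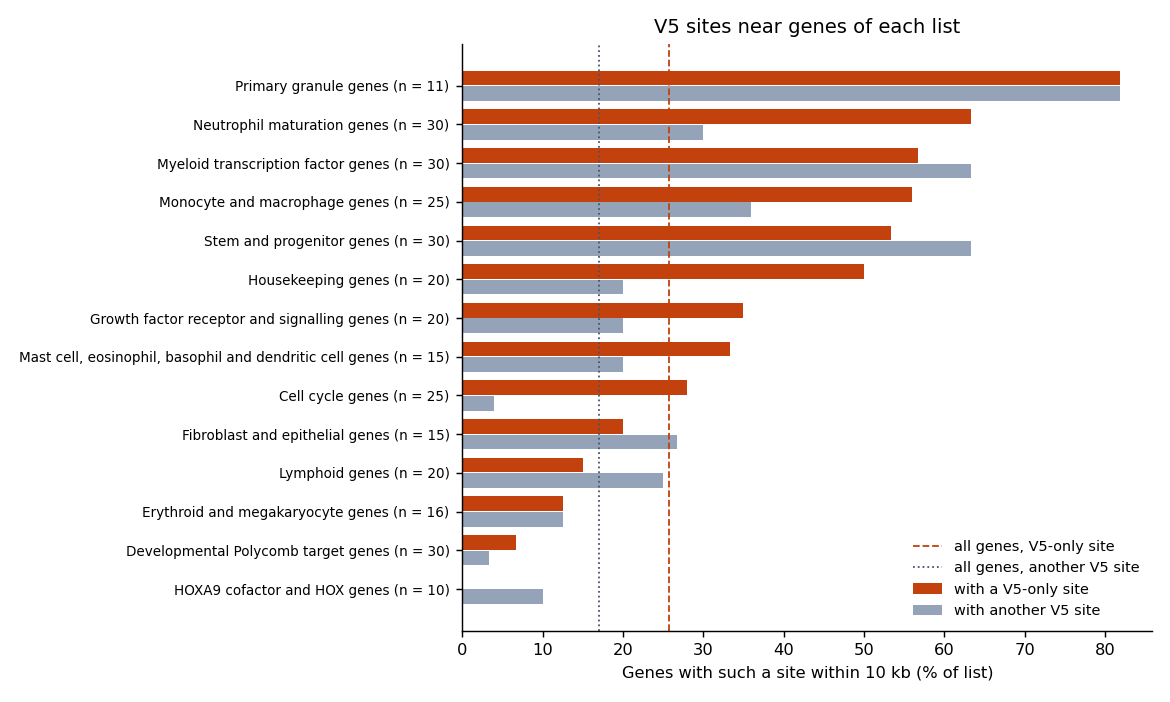
Genes of each list with a V5-only site and with another V5 site within 10 kb, as a percentage of the list, with vertical lines at the share of all protein-coding genes (25.8% and 17.1%). Primary granule genes stood at 81.8% for both kinds of site, and neutrophil maturation genes at 63.3% for V5-only sites and 30.0% for other V5 sites.

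At promoters the primary granule and neutrophil maturation lists again stood above all genes, and so did other lists, among them the housekeeping list. A V5-only site overlapped a promoter window of 695 of 17273 genes (4.02%) and another V5 site that of 428 (2.48%). V5-only sites did so at 5 of 10 primary granule genes, 6 of 26 neutrophil maturation genes and 3 of 16 housekeeping genes, against another V5 site at 2, 1 and 2 of them. The 5 were Ctsg, Elane, Fcnb, Igsf6 and Mpo, and the 6 were Camp, Csf3r, Lcn2, Ngp, S100a8 and S100a9. The primary granule list was not limited to genes of granule proteins, as it also held Igsf6 and Gstm1. Of the other lists, the stem and progenitor list had 2 such genes of 22 and none had more.

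H3K4me3 peaks overlapped a minority of V5-only sites, and the share was lowest in E2 and highest after 120 h without it. In E2, 812 V5-only sites (7.69%) were under a peak. After return to E2 from 24, 40 and 72 h without it, 1212 (11.5%), 1226 (11.6%) and 1364 (12.9%) were. After 120 h without E2, 1672 (15.8%) were. Over all V5 sites the shares were 8.32%, 12.3%, 12.5%, 13.7% and 16.9%. The H3K4me3 lists themselves covered 0.398%, 0.547%, 0.572%, 0.617% and 0.665% of the gene span in that order, and their part in the order of the shares was not tested. Set against that coverage, V5-only midpoints were under a peak 8.94, 11.2, 10.7, 12.3 and 14.5 times as often as the span was covered. Every comparison with H3K4me3 also runs across 2 cell lines.

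V5-only sites were under H3K4me3 less often than the other V5 sites in each list, but the difference changed with the width of the sites. The other V5 sites had shares of 9.35%, 13.6%, 13.9%, 14.9% and 18.7% in the order of the lists. V5-only minus other V5 sites, the difference in E2 was -1.66 points (-2.55 to -0.80). In the 24, 40 and 72 h lists it was -2.17 (-3.22 to -1.15), -2.29 (-3.34 to -1.25) and -1.96 points (-3.05 to -0.89). In the 120 h list it was -2.89 points (-4.07 to -1.71). V5-only sites were lower on 16, 18, 18, 16 and 17 of 20 chromosomes in that order. Counted at the midpoint, the differences were -0.43, -0.63, -0.56, -0.64 and -1.07 points, and the interval reached above 0 in every list except 120 h. Among V5 sites of 308 bp or more they changed sign, to 0.55, 1.42, 1.01, 0.53 and 1.06 points, each with an interval that included 0.

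Within width classes set by the quartiles of the V5 list, the direction also changed. Above 240 bp and up to 308 bp, V5-only sites were under H3K4me3 at 120 h in 14.8% of 3709 cases, against 21.4% of 571 other V5 sites, a difference of -6.54 points (-10.2 to -3.16). Above 420 bp they were so in 25.4% of 566 cases, against 19.7% of 3670, a difference of 5.69 points (2.03 to 9.64; higher on 13 of 20 chromosomes). In the other lists, V5-only minus other V5 sites above 420 bp was smaller. It was 1.74 points in E2 (-0.81 to 4.76) and 2.83 points at 72 h (-0.37 to 6.40), intervals that included 0. At 24 and 40 h it was 3.93 (0.77 to 7.48) and 3.27 points (0.10 to 6.81). Above 308 bp and up to 420 bp, the 120 h difference was 1.88 points (-0.38 to 4.15). The narrowest class, up to 240 bp, held 47 other V5 sites and gave no useful comparison.

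Against each kind of shared site the direction differed. V5-only sites were under H3K4me3 less often than sites shared with AM alone, by 2.83 points in E2 (10.5% of the shared sites) and 4.33 points at 120 h (20.2%, lower on 20 of 20 chromosomes). By the midpoint, those differences were -1.11 points (-1.80 to -0.45) and -2.40 points (-3.46 to -1.37). This comparison too changed direction with width: above 420 bp, V5-only minus sites shared with AM alone was 0.36 points in E2 (-2.29 to 3.44) and 3.97 points at 120 h (0.21 to 7.999). They were under it more often than sites shared with an ER V5 list, by 3.35 points in E2 (interval 1.96 to 4.48) and 3.29 points at 120 h (1.20 to 5.17). The 72 h share of V5-only sites, 12.9%, stood 4.72 points above the 8.20% of the sites shared with an ER V5 list. For a peak in any of the 5 lists, that difference was 0.25 points (-2.12 to 2.44), an interval that included 0. Farther from gene ends, V5-only sites had the lower share in E2 and at 120 h, with intervals that overlapped, as given by position below.

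**Figure D4:**
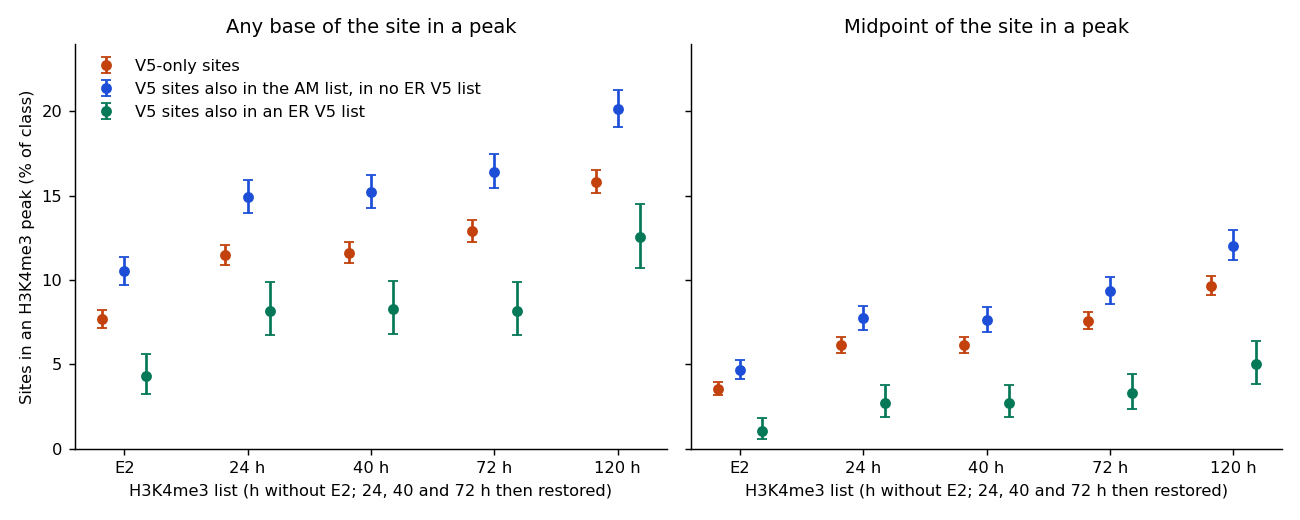
Sites in an H3K4me3 peak as a percentage of each class, by any base (left) and by the midpoint (right), in the 5 H3K4me3 lists, with 95% Clopper-Pearson intervals. V5-only sites lay between the sites shared with AM alone and those shared with an ER V5 list in each list, from 7.69% in E2 to 15.8% at 120 h by any base.

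Most V5-only sites, 8628 (81.7%), were in none of the 5 H3K4me3 lists, and 690 (6.53%) were in all 5. The other V5 sites were in none in 78.1% of cases and in all 5 in 8.03%. The commonest partial patterns of V5-only sites were 120 h alone, with 296 sites, and every list except E2, with 220, while 3 sites were in E2 alone. Between E2 and 120 h, 901 V5-only sites (8.53%) were marked at 120 h only and 41 (0.388%) in E2 only, against 9.05% and 0.441% of all V5 sites. The share marked at 120 h only was 9.90% of the other V5 sites, so V5-only sites were 1.36 points lower (interval of V5-only minus other, -2.28 to -0.47; lower on 16 of 20 chromosomes). That difference was counted by any base of a site. It was not repeated at the midpoint or within width classes, both of which changed the difference in the 120 h list itself. Of the 1713 V5-only sites marked in E2 or at 120 h, 52.6% were marked at 120 h and not in E2, against 51.4% of the other V5 sites (difference 1.19 points, -2.46 to 4.83), an interval that included 0. Of the 901, 39.6%, 39.3% and 54.3% were also under a peak in the 24, 40 and 72 h lists, in which E2 had been restored.

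The marked share of V5-only sites differed by position. Within 1 kb of a gene start, 51.7% of the 937 were marked in E2 and 81.2% at 120 h, against 58.0% and 84.1% of 586 other V5 sites there. Farther from gene ends, 2.98% of the 4701 V5-only sites inside genes and 2.14% of the 4210 outside genes were marked in E2, and 8.66% and 7.41% at 120 h. The other V5 sites had 10.9% inside genes and 10.2% outside at 120 h. At 120 h, sites shared with an ER V5 list had 10.5% of 516 inside genes (7.96 to 13.4). Outside genes they had 10.1% of 592 (7.82 to 12.9). Both shares were above those of V5-only sites, with intervals that overlapped (V5-only 7.87 to 9.50 and 6.64 to 8.24). No interval was computed for the differences, and overlap does not show that the shares were equal. In E2 the sites shared with an ER V5 list had 4.07% inside genes (2.54 to 6.15) and 2.37% outside (1.30 to 3.94). The E2 intervals of V5-only sites, 2.511 to 3.505 and 1.722 to 2.621, overlapped these. Within 1 kb of a start lay 2.56% of sites shared with an ER V5 list, and 63.3% of these 30 were marked at 120 h. The part of position in the difference over all sites was not tested.

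H3K4me3 peaks stood beside V5-only sites more often than on their midpoints. In E2, 3.56% of midpoints were covered and 5.90% of positions 400 bp away. At 120 h the midpoint share was 9.65% and the highest share 12.1%, at 200 bp. The ratio of highest to midpoint was 1.66 in E2 and 1.25 at 120 h, and it lay between 1.28 and 1.42 in the 24, 40 and 72 h lists. At 3000 bp the share was 1.41% in E2 and 2.49% at 120 h. Sites shared with AM alone had the same shape, with ratios of 1.51 in E2 and 1.15 at 120 h.

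**Figure D5:**
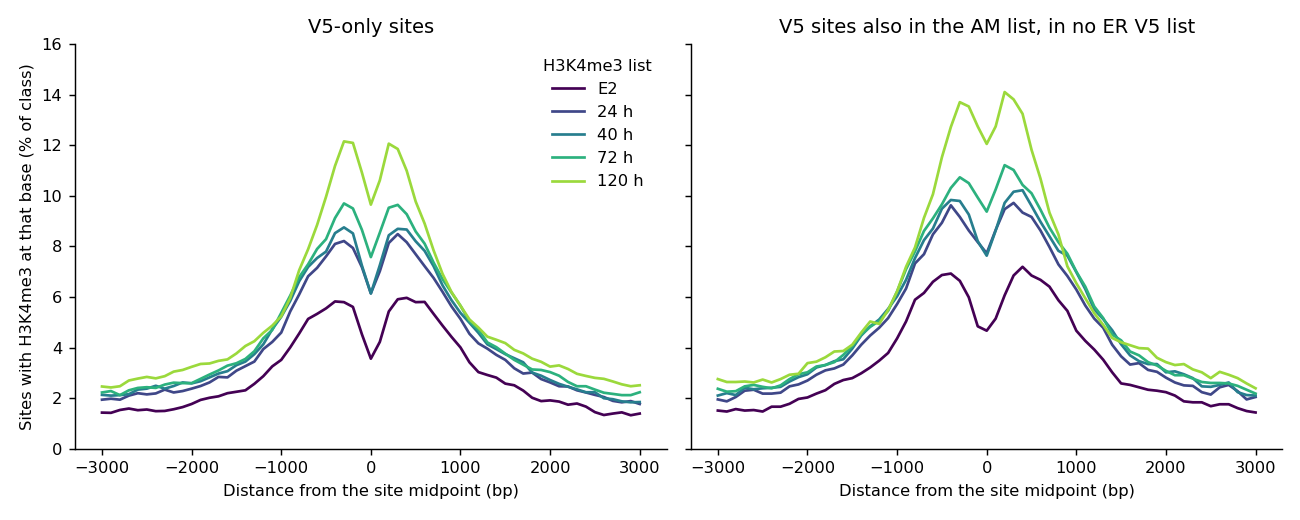
Percentage of sites with an H3K4me3 peak at each distance (bp) from the site midpoint, for V5-only sites (left) and sites shared with AM alone (right), 1 line for each H3K4me3 list. V5-only midpoints were covered in 3.56% of cases in E2 and 9.65% at 120 h, below the flanks in each list.

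Single sites show both directions. The widest V5-only sites marked at 120 h and not in E2 lay nearest to Kcnip1, Lilr4b, Heatr5a, Hk2, Ggta1 and Mapkapk2. The Hk2 site, of 716 bp and 6012 bp from this hexokinase gene, had 417 bp under a peak at 120 h and none in the other 4 lists. The Heatr5a site was covered over 480 bp in the 72 h list and 272 bp in the 120 h list. The widest marked in E2 and not at 120 h lay in or near Adipor1, Ptpra, Kpna3, Ybx1, Zfp608 and Insr. The Adipor1 site, of 547 bp inside this adiponectin receptor gene, had 126 bp under a peak in E2 and none in the other lists.

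At or just before starts of genes of the primary granule and neutrophil maturation lists, H3K4me3 over the V5-only site differed from gene to gene. The 616 bp site at the start of Ctsg was covered over 616, 546, 616, 267 and 271 bp in E2 and at 24, 40, 72 and 120 h. At Mpo, the 255 bp site 70 bp before the gene had 42, 78, 143, 118 and 0 bp covered. Both sites had more bases covered in E2 than at 120 h. At Csf3r, the receptor gene for granulocyte colony-stimulating factor, the 226 bp site was uncovered in E2 and covered in full in the other 4 lists. The sites at or just before the starts of Ngp, S100a8, S100a9, Fcnb, Elane and Camp were covered in none of the 5 lists. That of Lcn2 was covered over 90 bp at 120 h alone. Within 1 kb of the ends of Ngp, H3K4me3 covered 2525 bp at 120 h and 0 bp in the other 4 lists, and it covered 1760 bp at S100a8, 2794 bp at S100a9 and 2803 bp at Lcn2, each with 0 bp in the other 4 lists.

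Transcription factor genes also differed among themselves. The 358 bp V5-only site at the start of Cebpa was marked in all 5 lists, over 86 bp in E2 and 358 bp at 120 h. The one inside Spi1, of 357 bp, had 120 bp at 120 h alone, and 1 of the 3 at Myb, a progenitor transcription factor gene, had 157 bp at 120 h alone. The V5-only site of Cebpe, of 212 bp and 4230 bp from the gene, was in no H3K4me3 list, while the gene ends had 0, 200, 224, 2234 and 3327 bp. At Ccr2, a V5-only site of 334 bp was covered in full in E2 and at 0 bp at 120 h.

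Genes with V5-only sites were more often marked at their ends than genes with no V5 site. Within 1 kb of a gene end, H3K4me3 was found in E2 at 71.1% of the 3536 genes with V5-only sites and no other V5 site, 69.0% of the 1656 with other V5 sites alone and 35.1% of the 14401 with no V5 site within 10 kb. At 120 h the shares were 79.1%, 76.2% and 40.1%. The mark was present at 120 h and absent in E2 at 298 (8.43%, 7.53 to 9.39) of the genes with V5-only sites and no other V5 site, against 129 (7.79%, 6.54 to 9.19) with other V5 sites alone and 780 (5.42%, 5.05 to 5.80) with none, beside 6.50% of all genes. Among genes up to 10 kb long, those shares were 10.0% of 827 (8.07 to 12.3), 5.71% of 455 (3.77 to 8.26) and 4.45% of 6264. For genes of 10 to 30 kb they were 8.74% (7.17 to 10.5), 8.11% (5.93 to 10.8) and 5.75%. For genes of 30 to 100 kb they were 7.14% (5.70 to 8.82), 8.90% (6.52 to 11.8) and 6.52%. Above 100 kb they were 7.83% (5.51 to 10.7), 9.04% (5.36 to 14.1) and 6.87%. In every length class, the interval of genes with V5-only sites and no other V5 site overlapped that of genes with other V5 sites alone. Such overlap does not show that the shares were equal, and no interval was computed for their difference. The overlap was narrow for genes up to 10 kb. The mark was absent at 120 h and present in E2 at 15 of the 3536 genes (0.425% over all genes).

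Of the 19 neutrophil maturation genes with a V5-only site, 13 had the mark at 120 h and not in E2, as did 7 of the 11 without one. Among them were Ltf, lactoferrin, with 4361 bp at 120 h, Mmp9, a secreted protease gene, with 4845 bp, and Cxcr2 with 3037 bp, each at 0 bp in the other 4 lists. Itgam, the CD11b integrin gene, had 0, 0, 218, 499 and 3154 bp. Camp, the cathelicidin gene, had 0 bp in all 5. All 20 housekeeping genes, 10 with a V5-only site and 10 without, were marked in E2 and at 120 h. Of the 9 primary granule genes with a V5-only site, 5 were marked in E2 and 8 at 120 h. Over all genes with a V5-only site the shares were 71.6% in E2 and 80.1% at 120 h, beside 47.1% and 53.2% of all protein-coding genes.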

How the data were processed

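Peak lists of 10 of the 30 samples were used: V5 and AM in V5-Hoxa9-AM cells, V5 (E2, 72 h) and AM (E2) in V5-ER-Hoxa9-AM cells, and H3K4me3 in 5 conditions of ER-Hoxa9-Lys-GFP cells. H3K27ac and H3K27me3 lists were not used here. The deposited lists hold coordinates alone, with no count or score, so read depth is unknown. Per the submitters' processing notes, Bowtie2 2.0, BWA and MACS2 2.0 were used with mm9 and mm10; the sources used here do not say which went with which list, or give the threshold and any pooling. The lists used were taken as mm10.

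Overlap meant 1 bp. Genes and promoters came from RefSeq GRCm38.p6 (21627 protein-coding genes; starts on 19 chromosomes, for 81.8% of them). Shares carry Clopper-Pearson and differences Newcombe 95% intervals; direction was counted over 20 chromosomes, and no test was run, as each group had 1 library. Neighbouring sites are not independent. Software was Python 3.11.15, numpy 2.4.6, pandas 2.3.3, scipy 1.17.1 and matplotlib 3.10.9, and the interval and overlap code was tested on simulated data. Alternatives varied the overlap, window, width and comparison class.

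The members, gene lists, motifs and naming rule were chosen with earlier results of these data known. Named genes were the nearest genes of the widest sites (12 in all, 8 near gene ends, 6 in each H3K4me3 direction), the 10 nearest to most sites, up to 4 genes per list and 15 set genes. Outside this rule, and with their values known, Camp, Elane, Fcnb, Igsf6, Lcn2, Mmp9, Prtn3 and S100a9 were also named. The counts of genes by H3K4me3 at their ends were added after seeing the data. Of 298 list entries, 1 was unmatched. Some items that the naming rule gave are not reported here.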

Additional observations from a re-analysis of the deposited data

How the results depend on the processing

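The number of V5-only sites was 10559 with an overlap of 50% as well. That outcome was fixed in advance, because every overlapping site had the same start and end in both lists. The number was 10205 when peaks within 500 bp also excluded a site and 10558 when the ER AM list was added. Among V5 sites at or above the median width it was 2675. The share near a gene end was 17.96% with a 2.5 kb window, 10.9% among the wider V5 sites and 9.15% for gene starts, the last chosen after seeing the data. By the midpoint, the gene-end difference from sites shared with AM alone was -1.03 points (-2.11 to 0.02).

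In the order E2, 24, 40, 72 and 120 h, the H3K4me3 share of V5-only sites was 3.56%, 6.15%, 6.14%, 7.58% and 9.65% by the midpoint, 3.69%, 6.50%, 6.45%, 7.99% and 10.1% with 50% of the site covered, 4.85%, 7.22%, 7.25%, 8.49% and 9.87% with H3K4me3 peaks of at least median width, and 9.42%, 14.5%, 14.5%, 14.99% and 19.4% among wider V5 sites. The difference from the other V5 sites was -0.43, -0.63, -0.56, -0.64 and -1.07 points by the midpoint and turned to 0.55, 1.42, 1.01, 0.53 and 1.06 points among the wider V5 sites. Against sites shared with AM alone, a comparison added after seeing the data, it was -2.83, -3.44, -3.60, -3.52 and -4.33 points. The cause of the reversal was not tested.

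Within 50 kb, 167 of 289 list genes had a V5-only site, against 112 within 10 kb. Over all protein-coding genes the share rose too, from 25.8% within 10 kb to 46.3% within 50 kb. Counts that moved by over 1.5 times were 20 of 25 for cell cycle genes, 13 of 20 for growth factor receptor genes, 9 of 15 for the mast cell and dendritic cell list, 6 of 20 for lymphoid genes, 5 of 16 for erythroid genes and 2 of 10 for HOX genes. No paired analysis was possible because each group had 1 library. Leaving out a library was not possible for the same reason. The lists hold no heights, so a stricter calling threshold could be approached by width alone.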
